A study of Arabidopsis thaliana with 6 samples.

Results

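COR15A, COR15B, COR47 and DI21 are Arabidopsis genes named for their induction by cold or drought, and their transcript levels were followed here in unstressed seedlings that lack a pair of cell-cycle transcription factors. The members were taken by name: a probe set, the group of short probes that reads 1 transcript, was used where the platform annotation gave exactly 1 of these 4 genes. Each gene had 1 such probe set, and the same annotation named 13356 genes in all by such probe sets. The tested seedlings carried mutations in both MYB3R1 and MYB3R4 (myb3r1 myb3r4, cultivar Col-0), which encode R1R2R3-type MYB proteins that regulate genes of the G2 and M phases of the cell cycle, and they were set against wild-type Col-0. The sources used here do not name the mutant alleles. Both genotypes were whole seedlings of 9 days, grown without any treatment on MS agar medium with 2% sucrose at 22 °C in continuous light, so no sample had been cooled or dried. There were 3 myb3r1 myb3r4 arrays and 3 wild-type arrays, and the labels pair them into 3 experimental sets with 1 array of each genotype. Whether each set was grown as a culture of its own is not in the labels, and the p-values then cover only the spread between these arrays, some of which may be technical.

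Plants of temperate climates become more resistant to freezing after days in the cold. In Arabidopsis the CBF (DREB1) transcription factors rise within hours of cooling and bind the CRT/DRE element in the promoters of COR genes, and drought acts on many of the same genes through the hormone abscisic acid and through DREB2 factors. The products of the COR genes are mostly hydrophilic proteins that protect membranes and other proteins when cells lose water. COR15A and COR15B are sister proteins of the chloroplast stroma that stabilise chloroplast membranes during freezing, COR47 is an acidic dehydrin, and DI21, named as a drought-induced gene, belongs to the late embryogenesis abundant (LEA) proteins.

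A level is a log2 signal after division by the array median, so that 0 is the level of a typical probe set, and a difference is myb3r1 myb3r4 minus wild type. Each difference was fitted with limma across 13648 probe sets with a block for the experimental set, and its adjusted p takes all of them into account (Benjamini-Hochberg, threshold 0.05). With 3 arrays per genotype, precision is limited by their number. Levels of different probe sets are not compared with each other, and in whole seedlings fewer cells that use a gene and less RNA per cell cannot be told apart. The targeted genes MYB3R1 and MYB3R4 had no probe set of 1 named gene and were not analysed here, so the mutant label was not checked at the transcript level. Of the markers of the labelled tissue, 3 of 5 listed for green tissue were named, and their summed signal was 233 to 296 array medians in myb3r1 myb3r4 and 196 to 234 in wild type. For root, 4 of 5 were named, with sums of 81.4 to 141 in myb3r1 myb3r4 and 68.4 to 117 in wild type. Within sets 1 to 3 the summed green-tissue signal of the mutant was 1.26, 1.19 and 1.23 times that of wild type and the root sum 1.20, 1.75 and 1.19 times. All 3 green-tissue markers and 3 of the 4 root markers (PYK10, JAL33 and NAI2) were higher in the mutant in every set, and none passed in limma. The remaining root marker, AT5G17820, had differences of -0.88, 0.76 and -0.30 in sets 1 to 3, so the root markers did not move together. None of the 6 listed seed and 5 listed flower markers had a named probe set.

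The data show lower COR15A and COR15B signals in all 3 sets of myb3r1 myb3r4 seedlings, by 1.63-fold and 1.50-fold in the fit, while COR47 and DI21 did not keep 1 direction over the sets. For COR15A the genotypes were nearly equal in set 2, with a difference of -0.026. DI21 was 1.42-fold lower in the fit, with 1 set on the other side, and COR47 differed by 1.06-fold. None of the 4 genes passed the limma test across all probe sets, where 0.528% of probe sets passed, and 2 of the 4 had an unadjusted p under 0.05, as had 17.4% of tested probe sets. A difference below 0 in all 3 sets was seen for 2 of the 4 genes and for 15.6% of all tested probe sets. In none of the 4 genes did all myb3r1 myb3r4 arrays lie below all wild-type arrays, which held for 4.57% of tested probe sets. In the same 3 sets in which the COR15 signals were lower the summed markers of green tissue and root were higher. The root marker AT5G17820 went against the root sum in sets 1 and 3 (-0.88 and -0.30) and with it in set 2 (0.76). The part of these markers in the result was not tested.

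**Figure D1:**
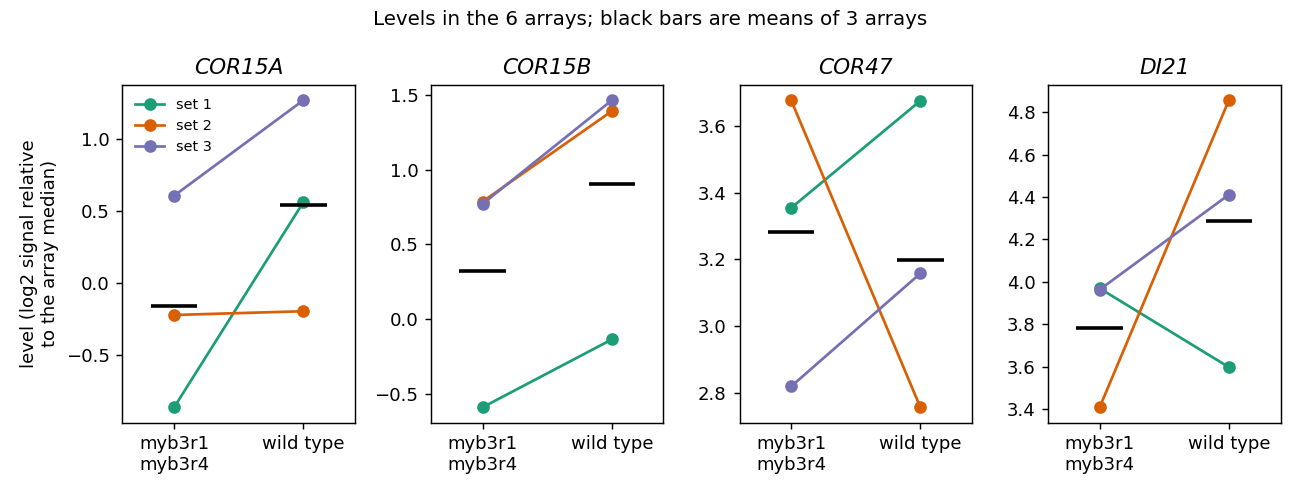
Levels of the 4 genes on each array, as log2 signal relative to the array median, with myb3r1 myb3r4 on the left and wild type on the right of each panel. Lines join the arrays of 1 experimental set, black bars are means of 3 arrays, and each panel has its own axis. All 3 lines of COR15A and COR15B are lower in myb3r1 myb3r4, though that of COR15A in set 2 is nearly flat, while set 2 of COR47 and set 1 of DI21 run the other way.

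COR15A (AT2G42540, probe set 263497_at) had levels of -0.86, -0.22 and 0.61 in the myb3r1 myb3r4 arrays of sets 1 to 3, against 0.56, -0.20 and 1.27 in the wild-type arrays. The set 1 mutant array was the lowest of the 6 and the set 3 wild-type array the highest, and the genotypes overlapped. Within the sets the difference was -1.43, -0.026 and -0.66, so that the 2 genotypes were nearly equal in set 2 and differed by 2.69-fold in set 1. The means were -0.16 ± 0.74 in myb3r1 myb3r4 and 0.54 ± 0.73 in wild type (SD, n = 3 each). The fitted difference was -0.70 (SE 0.25, 95% interval -1.27 to -0.14 before adjustment, limma adjusted p = 0.215).

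The COR15A call turned on single sets and on a measure of RNA quality. Without set 2, where the genotypes were nearly equal, the difference was -1.04 and passed in limma (adjusted p = 0.0453), as did 107 probe sets in place of 72. Without set 1 it was -0.34 and did not pass (adjusted p = 0.328). A fit without 1 set leaves only 1 residual degree of freedom per probe set. The 3' minus 5' signal of the control transcripts, which grows as RNA is degraded or copied incompletely, differed between the genotypes by 0.44, -1.12 and -0.78 in sets 1 to 3. With it as a covariate the COR15A difference was -1.11 (limma adjusted p = 0.0154). That fit, too, leaves only 1 residual degree of freedom per probe set, and 194 probe sets passed under it in place of 72. The part of RNA quality in the COR15A difference was not tested.

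COR15B (AT2G42530, probe set 263495_at) had levels of -0.59, 0.79 and 0.77 in the myb3r1 myb3r4 arrays of sets 1 to 3, against -0.14, 1.39 and 1.46 in the wild-type arrays. The lowest wild-type array, that of set 1, lay below the mutant arrays of sets 2 and 3, so the genotypes overlapped over all arrays although each set placed the mutant lower. The differences of -0.45, -0.60 and -0.69 were the most even of the 4 genes, with a range of 0.24 between sets, above the range of 16.8% of tested probe sets. In folds, wild type was 1.37, 1.52 and 1.62 times the mutant signal. The means were 0.32 ± 0.79 in myb3r1 myb3r4 and 0.91 ± 0.90 in wild type (SD, n = 3 each). The large SDs come with a step between sets that both genotypes share, since set 1 minus the mean of the other sets was -1.37 in myb3r1 myb3r4 and -1.56 in wild type.

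The fitted COR15B difference was -0.58 (SE 0.15, 95% interval -0.92 to -0.25 before adjustment). Its unadjusted p of 0.00362 ranked 365 among the 13648 probe sets of the limma fit, and the adjusted p was 0.135. A p under 0.05 before adjustment, with myb3r1 myb3r4 lower, was found for COR15A, COR15B and 4.81% of all tested probe sets. COR15B passed in limma only without set 1, at -0.65 (adjusted p = 0.0395), a setting under which 1107 probe sets passed in place of 72. That fit leaves only 1 residual degree of freedom per probe set. Without the block by set, which leaves the step between sets in the error, the SE of COR15B was 0.51 (adjusted p = 0.792). The 3' minus 5' control signal was lowest in both arrays of set 1, at 1.50 in myb3r1 myb3r4 and 1.07 in wild type, where it was 1.92 and 2.44 in the other mutant arrays and 3.04 and 3.22 in the other wild-type arrays; with its difference as a covariate COR15B stood at -0.52 (adjusted p = 0.181). Its part in the low COR15B levels of set 1 was not tested.

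The COR15 sister genes had the same lowest array, the mutant of set 1, and the same highest array, the wild type of set 3, but the size of their differences was not shared from set to set. The log ratio of COR15A to COR15B changed between genotypes by -0.97 in set 1, 0.58 in set 2 and 0.029 in set 3. COR15A was nearly equal between genotypes in set 2, where COR15B was 1.52-fold lower in the mutant. The step between set 1 and the others was present in both genotypes for COR15B. For COR15A, set 1 minus the mean of the other sets was -1.06 in myb3r1 myb3r4 and 0.024 in wild type. Sets 2 and 3 of COR15A were themselves apart, at -0.22 and 0.61 in myb3r1 myb3r4. In wild type they were -0.20 and 1.27, on either side of set 1 (0.56). The deposited table does not show whether either probe set also reads the transcript of the other gene.

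COR47 (AT1G20440, probe set 259570_at), the dehydrin, had levels of 3.35, 3.68 and 2.82 in the myb3r1 myb3r4 arrays of sets 1 to 3, against 3.68, 2.76 and 3.16 in the wild-type arrays. The highest and lowest values were split over both genotypes, and the ranges overlapped almost fully. Set 2 had the mutant 1.89-fold higher, and sets 1 and 3 had wild type 1.25-fold and 1.26-fold higher. The differences were -0.32, 0.92 and -0.34, with means of 3.28 ± 0.43 in myb3r1 myb3r4 and 3.20 ± 0.46 in wild type (SD, n = 3 each). The fitted difference of 0.087 (SE 0.24, limma adjusted p = 0.874) had a 95% interval of -0.46 to 0.64, which leaves room for differences in either direction. In sets 1 and 2 COR47 and DI21 had opposite signs, and in set 3 both were below 0. The fitted COR47 difference had no settled sign: it was -0.064 with quantile normalization, -0.037 with that array-median division undone, and -0.33 without set 2.

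DI21 (AT4G15910, probe set 245523_at) had levels of 3.97, 3.41 and 3.96 in the myb3r1 myb3r4 arrays of sets 1 to 3, against 3.60, 4.86 and 4.41 in the wild-type arrays. Wild-type arrays of sets 2 and 3 were the highest of the 6, but the set 1 wild-type array lay below 2 of the mutant arrays. The differences were 0.37, -1.45 and -0.45, so that set 1 had the mutant 1.29-fold higher and set 2 had wild type 2.73-fold higher. The means were 3.78 ± 0.32 in myb3r1 myb3r4 and 4.29 ± 0.64 in wild type (SD, n = 3 each). The fitted difference was -0.51 (SE 0.28, 95% interval -1.15 to 0.14, limma adjusted p = 0.379).

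The DI21 value moved most with single sets and with the control signal. Without set 1, the only set with the mutant higher, the difference was -0.95 (limma adjusted p = 0.0138), where 1107 probe sets passed in place of 72. Without set 2 it was -0.038 (adjusted p = 0.958). A fit without 1 set leaves 1 residual degree of freedom per probe set. Over sets 1 to 3 the order of the DI21 differences, 0.37, -1.45 and -0.45, was that of the 3' minus 5' control difference, 0.44, -1.12 and -0.78. With that control as a covariate the difference was -2.62e-04 (SE 0.17, adjusted p = 0.999), where only 1 residual degree of freedom is left per probe set. An order shared over 3 sets is easily met, and the part of RNA quality in the DI21 difference was not tested.

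**Figure D2:**
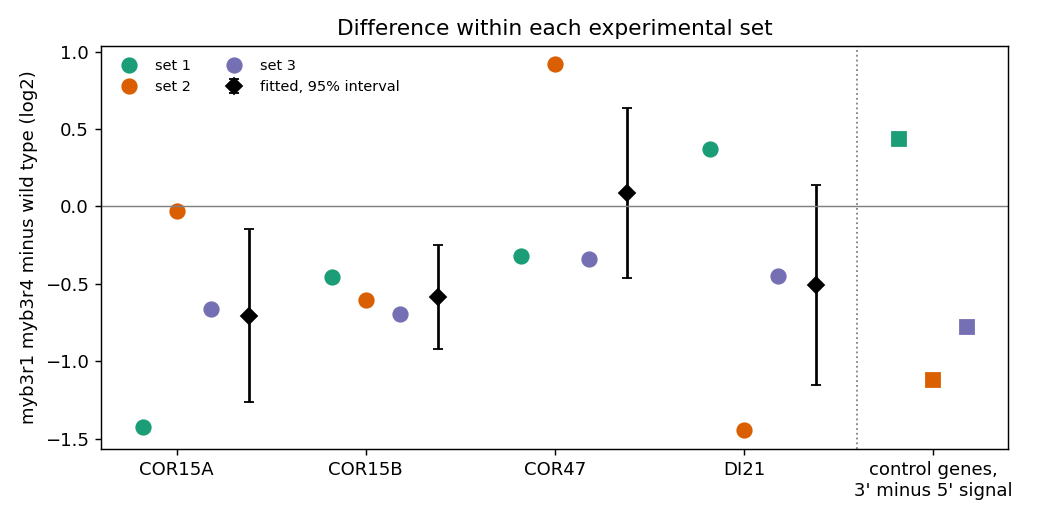
Difference of myb3r1 myb3r4 minus wild type (log2) in each experimental set for the 4 genes, with the fitted value and its unadjusted 95% interval as black diamonds and bars. Squares on the right show the same difference for the control transcripts (3' minus 5' signal), at 0.44, -1.12 and -0.78. The 3 points of COR15B lie close together, and those of the other genes spread over more than 1 unit.

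The spread between sets was itself unlike that of most transcripts. The residual SD of the fit, what is left once genotype and set are taken out, was 0.50 for COR15A, 0.51 for COR47 and 0.64 for DI21, above 96.3%, 96.7% and 98.8% of tested probe sets. For COR15B it was 0.086, above only 15.8%. The range of the wild-type levels alone was 1.47 for COR15A, 1.60 for COR15B, 0.92 for COR47 and 1.26 for DI21, above 95.6%, 96.7%, 82.6% and 92.7% of tested probe sets. Across all tested probe sets the median difference was 0.058, and relative to it the 4 genes stood at -0.76 for COR15A, -0.64 for COR15B, 0.029 for COR47 and -0.57 for DI21. A permutation of genotypes within the 3 sets, an exact two-sided test, cannot give a p below 0.25, which COR15A and COR15B reached.

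COR15A and COR15B lie next to each other on the chromosome, per RefSeq's gene order. On the far side of COR15B, AT2G42520, whose gene model overlaps that of COR15B, had differences of -0.060, -0.43 and -0.079 in sets 1 to 3 and -0.19 in the fit (SE 0.15, limma adjusted p = 0.531). On the far side of COR15A the nearest gene with a named probe set was AT2G42560, which was too dim to be tested, at -6.58 to -2.69 in myb3r1 myb3r4 and -6.95 to -5.33 in wild type. COR47 lies next to the dehydrin gene ERD10, which had no named probe set, and the nearest gene on that side that had one, AT1G20480, was too dim to be tested. On its other side AT1G20430 differed by 0.049 (SE 0.16, adjusted p = 0.898). Beside DI21, the vacuolar fructose transporter gene SWEET17 differed by 0.54 (SE 0.19, adjusted p = 0.221), opposite in sign to DI21, with -0.013, 0.93 and 0.70 in sets 1 to 3. On the other side the nearest gene with a named probe set, AT4G15890, differed by 0.087, -0.53 and -0.20 in sets 1 to 3, the same order as DI21 on a smaller scale (fitted -0.21, SE 0.18, adjusted p = 0.570). The 3' minus 5' control difference had that order too, and an order shared over 3 sets is easily met. No tested neighbour outside the 4 genes passed in limma.

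The rest of the cold and dehydration response could be followed at few genes, because most had no probe set of 1 named gene. Lists of regulators, effectors, dehydrins, LEA relatives, abscisic acid genes and osmolyte genes held 85 genes beside the 4. Of these 9 had a named probe set and 4 were tested, 2 lower and 2 higher in myb3r1 myb3r4, with 0 past the limma test in either direction, 1 higher at an unadjusted p under 0.05 (12.6% of all tested probe sets were higher at that threshold) and a median of 0.21, where the median of all tested probe sets was 0.058. None of the 25 genes of abscisic acid synthesis and signalling and none of the 10 osmolyte and sugar genes was named, nor were the CBF genes.

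Of the regulators 1 of 17 was tested, ZAT10 (STZ), which encodes a zinc-finger repressor induced by cold, salt and drought. Its levels were 2.17, 1.46 and 1.38 in the myb3r1 myb3r4 arrays of sets 1 to 3, against 1.54, 0.17 and 0.45 in wild type. Each set had the mutant higher, by 0.63, 1.29 and 0.93, and the fitted difference of 0.95 (SE 0.17, limma adjusted p = 0.0566) missed the threshold. ZAT10 thus had the opposite sign to the COR15 genes in every set, though COR15A was nearly equal between genotypes in set 2 (-0.026). Whether ZAT10 and the COR15 genes are linked here was not tested.

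Among the dehydrins, a family of hydrophilic proteins with repeated lysine-rich segments, COR47 was joined by LTI30 and HIRD11 (AT1G54410). LTI30, a dehydrin that binds membranes, had levels of 2.14, 1.72 and 1.59 in myb3r1 myb3r4 and 2.15, 0.59 and 1.37 in wild type, nearly equal in set 1 and 1.14 higher in the mutant of set 2. Its difference was 0.45 (SE 0.22, limma adjusted p = 0.321). HIRD11 was nearly constant, with all 6 levels between 5.47 and 5.87 and a difference of -0.018 (SE 0.13). For both COR47 and LTI30, set 2 held the highest difference. The other 3 dehydrin genes with a named probe set, AT2G21490, AT4G38410 and AT4G39130, were too dim to be tested.

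DI19, a drought-induced zinc-finger protein gene, differed by -0.071 (SE 0.16, limma adjusted p = 0.840). In the LEA group of DI21 itself, AT3G53770 was dim and ranged from -7.31 to -3.0 in myb3r1 myb3r4 and from -4.82 to -2.91 in wild type. The LEA gene LEA4-5 was dim as well, at -6.09 to -4.02 in myb3r1 myb3r4 and -6.76 to -4.00 in wild type. Such dim signals are noisy on a log scale, and no difference was fitted for them.

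A wider look took every gene whose RefSeq symbol or synonym mentions cold regulation, low temperature, drought, dehydrin or late embryogenesis abundant, a choice of words made after the values could be seen. Beside the 4 genes it held 12 named probe sets, of which 7 were tested, 3 lower and 4 higher, from -0.14 to 0.52 with a median of 0.40. Those 7 include LTI30, DI19 and HIRD11 from the lists above, so the lists and the wider look together tested 8 genes beside the 4. None of the 7 passed in limma, and 2 of the 7, both higher, had an unadjusted p under 0.05, against the 12.6% of all tested probe sets. COR27, a cold-regulated gene known for its part in the circadian clock, stood at -0.14 (SE 0.19), and SRC2, whose soybean relative is induced by cold, at 0.51 (SE 0.15, adjusted p = 0.182). AT2G46140 (LEA27) and AT2G44060 (LEA26) stood at 0.52 (SE 0.18) and 0.40 (SE 0.22). The other 5 were too dim to be tested, and such signals are noisy on a log scale. Among them LEA18 was lower in the mutant in each set, with differences of -2.22, -4.19 and -0.53. AtLEA4-1 was lower as well, with -1.59, -0.73 and -1.72, and both lay below -3 on every array. The rest, DOR, AT2G21490 and LEA4-5, had differences on both sides of 0, so the dim genes showed no shared direction. Whether the genes of this wider look differ as a group from the 4 was not tested.

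**Figure D3:**
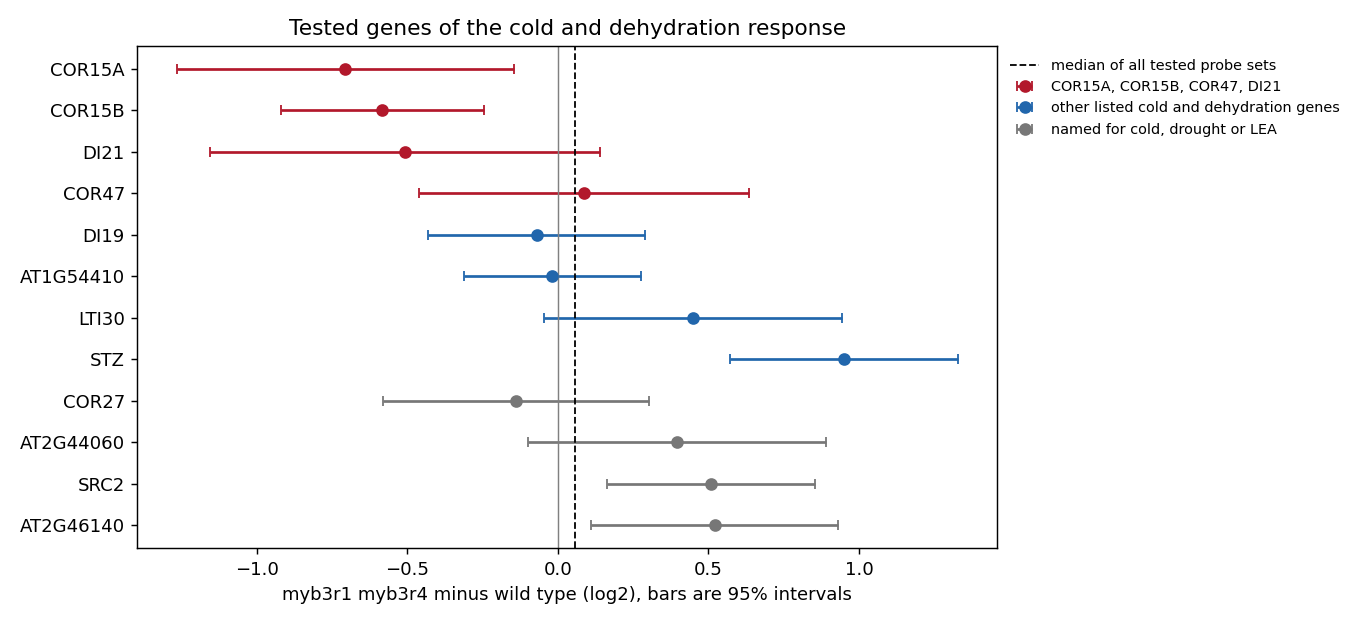
Fitted difference of myb3r1 myb3r4 minus wild type (log2) with unadjusted 95% intervals for the 4 genes (red), the other tested genes of the lists (blue) and further genes with cold, drought or LEA in their RefSeq names (grey). The dashed line is the median of all tested probe sets, 0.058. COR15A, COR15B and DI21 lie furthest to the left and STZ (ZAT10), at 0.95, furthest to the right.

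The genes most like each member were sought over the 6 arrays among 7306 tested probe sets of 1 gene, by Pearson's r, a measure that with 6 points always finds close matches and is given as a description. For COR15A they were AT1G74300 (r = 0.98), AT5G46070 (0.98) and ATMPK8, a mitogen-activated protein kinase gene (0.94), and 11 probe sets exceeded 0.9. All 3 moved less than COR15A itself, with differences of -0.12, -0.20 and -0.21. For COR15B, whose levels mainly part set 1 from the other sets, 454 exceeded 0.9, led by AT3G51370 (r = 0.997), AT3G66652 (0.996) and AT1G14460 (0.994).

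For COR47 the nearest were DER2.2 (r = 0.99), AT3G55070 (0.97) and AT4G38080 (0.97), and 52 exceeded 0.9. AT4G38080 shared the split between sets in a stronger form, at -0.28, 1.59 and -0.45. For DI21 they were AT1G60160 (r = 0.998), AT4G15475 (0.993) and AT1G10900 (0.992), and 140 exceeded 0.9. No member was among the 3 nearest of another, and none of the 12 genes was on the lists of cold and dehydration genes.

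**Figure D4:**
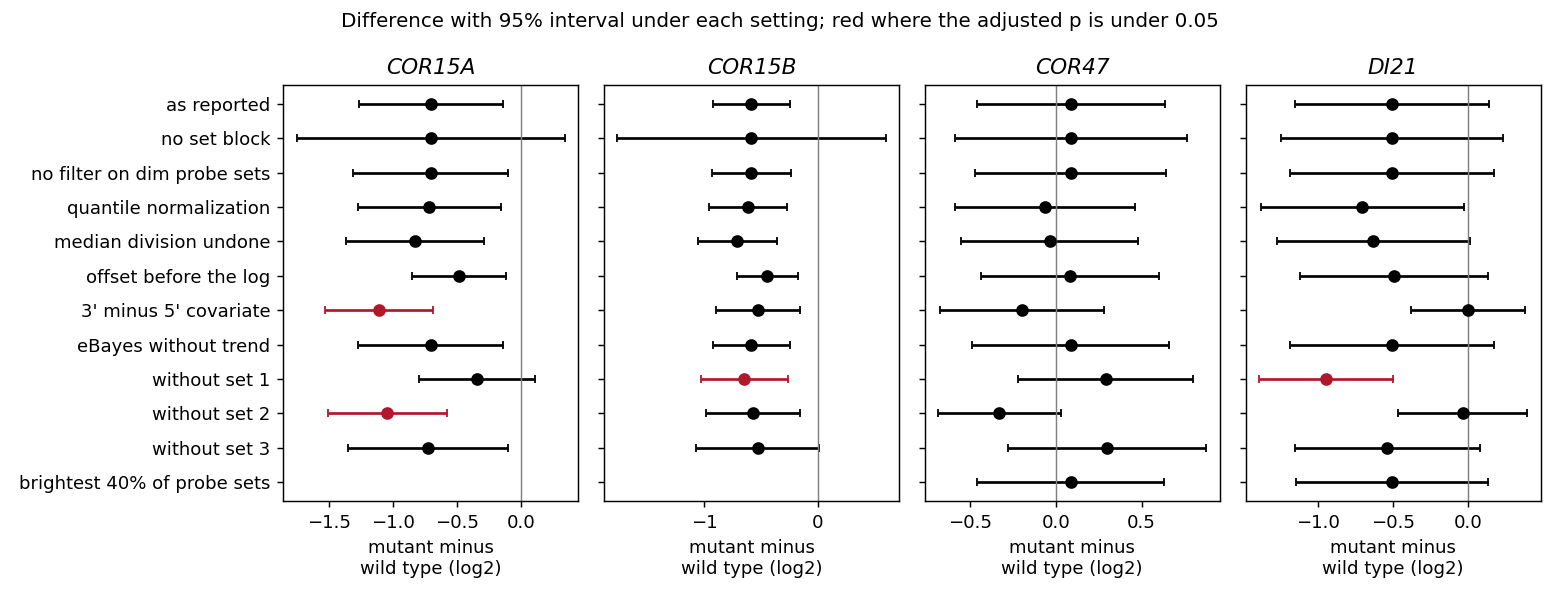
Difference of myb3r1 myb3r4 minus wild type (log2) and its unadjusted 95% interval for each gene under each way of processing, with red marking an adjusted p under 0.05. COR15B stays between -0.71 and -0.44 in the alternatives, COR15A between -1.11 and -0.34, and DI21 runs from -0.95 to -2.62e-04, while COR47 falls on both sides of 0. COR15A and COR15B have no value among the brightest 40% of probe sets, which leaves them out.

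COR15A and COR15B were lower in myb3r1 myb3r4 in all 10 alternatives that gave them a value, with 2 calls for COR15A and 1 for COR15B. Most of these signs were fixed in advance. Dropping the block, the filter or the trend left the estimates at -0.70 and -0.58. Leaving out a set, an offset before the log or undoing the median division could not reverse differences below 0 in every set. Only quantile normalization and the covariate could have changed the sign. DI21 was below 0 in all 11 alternatives, with 1 call, though 2 of those values were within 0.04 of 0. Its estimate stayed at -0.51 without the block, the filter or the trend. COR47 was above 0 in 7 of 11 and below in 4, with 0 calls in limma at an adjusted p of 0.05 and an unadjusted p of 0.728 as reported.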

How the data were processed

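RNA of 6 whole-seedling samples was measured on Affymetrix arrays, 1 per sample; per the labels 10 µg of total RNA was labelled with biotin. Per the submitters' processing notes the authors summarised signals with MAS5, of unstated version. The deposited values are log2 signals. The base is shown by the values, since 2 raised to each value below 3000 smallest steps of its array was a whole number of steps in 100% of cases (tolerance 0.02). The column medians are all 0, which shows a division by the array median that no label names. That step removes any shift shared by most transcripts. Genes were not centred. The 1 value that stood for no signal was raised to its array's smallest step. Dim MAS5 signals are noisy on a log scale.

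Names came from the platform annotation, updated by gene identifier through RefSeq's table (TAIR10.1), which held 13436 of 13513 probe sets of 1 gene. After leaving out 64 control probe sets, the brightest 60% by mean level over all arrays were tested in limma 3.58.1 (R 4.3.3; lmFit, eBayes with a trend, two-sided), with the experimental set as a block because the submitters describe paired replicates. Deviations from the genotype means correlated within sets by 0.67, 0.28 and 0.62. The fit was tested on simulated data. The members, gene lists, named genes and alternatives were chosen with earlier results of these data known. Named beside the members were each list's called genes, its largest differences and its brightest genes, each member's nearest neighbours, and the 3 genes most like it. The 3' minus 5' value is the mean over 6 pairs of control probe sets.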

Additional observations from a re-analysis of the deposited data

How the results depend on the processing

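Values are log2 differences of myb3r1 myb3r4 minus wild type. Calls gained were COR15A with the 3' minus 5' covariate and the replicate block (-1.11) and without set 2 (-1.04), and COR15B (-0.65) and DI21 (-0.95) without set 1. Leaving out each set in turn gave -1.04 to -0.34 for COR15A, -0.65 to -0.53 for COR15B, -0.33 to 0.30 for COR47 and -0.95 to -0.038 for DI21. COR47 changed sign with quantile normalization (-0.064), with the median division undone (-0.037), with the covariate (-0.20) and without set 2 (-0.33). The cause was not tested. Without the replicate block the differences stayed at -0.70, -0.58, 0.087 and -0.51 for COR15A, COR15B, COR47 and DI21, none was called, and 1 probe set of all tested passed. The count of 72 probe sets past the test was 14 with no filter on dim probe sets, 43 among the brightest 40%, 194 with the covariate, and 107 to 1107 without 1 set (1107 without set 1, 207 without set 3). Undoing the median division moved the median of all tested probe sets by -0.124, and the split of calls was 33 lower and 41 higher in place of 19 and 53. COR15A and COR15B, with mean levels of 0.19 and 0.62, are left out by the 40% filter, whose lowest mean level is 0.65. Detection calls were not used here, so how far each signal stood above background is unknown.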
